A study of Mus musculus with 4 samples.

Results

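Smooth muscle and pericyte genes, used as markers of the mural cells of coronary vessels, were examined in isolated mouse cardiomyocytes. The set held 10 genes of the 48316 gene names in the table, chosen by symbol: Myh11, Acta2, Tagln, Cnn1, Mylk, Pdgfrb, Rgs5, Cspg4, Notch3 and Vtn. Each matched 1 row, each had the status OK in both groups, and all 10 had a mean of at least 1 FPKM (fragments per kilobase of transcript, scaled to sequencing depth) over the groups.

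Polyadenylated RNA was sequenced from heart cells released by Langendorff perfusion, in which enzyme is passed through the coronary vessels. The MHC control group held 2 libraries from mice whose genotype label is MHC and nothing more. The Rbfox2 OE group held 2 libraries from mice labelled RbFox2, which overexpress an RNA-binding regulator of splicing. All animals had the strain label C57BL x FVB and had received doxycycline in the diet for 3 days. The labels do not spell out MHC or name the promoter, the transgene allele, the isoform, or the age and sex of the animals.

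Mural cells wrap the vessel wall. Smooth muscle cells of arteries contract when myosin light chain kinase (Mylk) phosphorylates myosin, and serum response factor with its coactivator myocardin drives many of their contractile genes. Pericytes sit on capillaries, are recruited by platelet-derived growth factor B from endothelium through the receptor encoded by Pdgfrb, and depend with smooth muscle on signalling through Notch3.

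For each gene the table gave 1 pooled value per group and the bounds of that value, which stand in parentheses after it below. There was no value per library, so replicate spread is unknown and no test between the groups could be made. Rbfox2 stood at 14.7 FPKM in MHC control cells and 293 FPKM in Rbfox2 OE cells, which matches the group labels. Of 14 cardiomyocyte markers, 12 were measured above the minimum, led by Myl2 at 24688 and 18007 FPKM, while Myh6 and Mb were listed at 0 because their estimation failed (status HIDATA). Over the 11697 genes compared, the median log2 ratio of Rbfox2 OE over control, computed with 1 FPKM added to each value, was -0.06. Rescaling without mitochondrial genes and the 10 most abundant genes moved that median to 0.06.

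Of the 10 smooth muscle and pericyte genes, 9 stood higher in Rbfox2 OE and Vtn stood lower. A log2 ratio above 0 was found for 46.2% of all genes compared. The median log2 ratio of the 10 genes was 0.76, with a range from -0.09 to 1.65. Their summed level was 158 FPKM for the control and 341 FPKM for Rbfox2 OE, a ratio of 2.17. In bulk samples a larger number of expressing cells and more RNA per expressing cell cannot be told apart. Which cells the RNA came from was not tested.

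A log2 ratio of at least 1 (2-fold) was reached by 2 of the 10 genes, Acta2 and Tagln, and 6.97% of all genes compared were as much higher. The authors' bounds were separate between groups, with the Rbfox2 OE value higher, for 3 of the 10 genes (Acta2, Pdgfrb and Myh11), against 6.67% of all genes compared. Acta2 was the 1 gene that met both criteria, which 5.27% of all genes compared met in that direction. None of the 10 genes was 2-fold lower, as 1172 of all genes compared were, or had separate bounds in the lower direction, as 9.33% had. What level of error the bounds stand for is not given in the sources used here.

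Both counts moved with the settings. The pseudocount holds down the ratio of low genes, and with plain FPKM ratios 4 genes reached 2-fold, Cnn1 and Pdgfrb in addition to Acta2 and Tagln, against 10.7% of all genes. After rescaling, 6 genes had separate bounds, with Mylk, Rgs5 and Notch3 added, against 8.63% of all genes. Scaling by the median ratio gave 5 genes, with Mylk and Rgs5 added, against 7.44% of all genes.

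**Figure D1:**
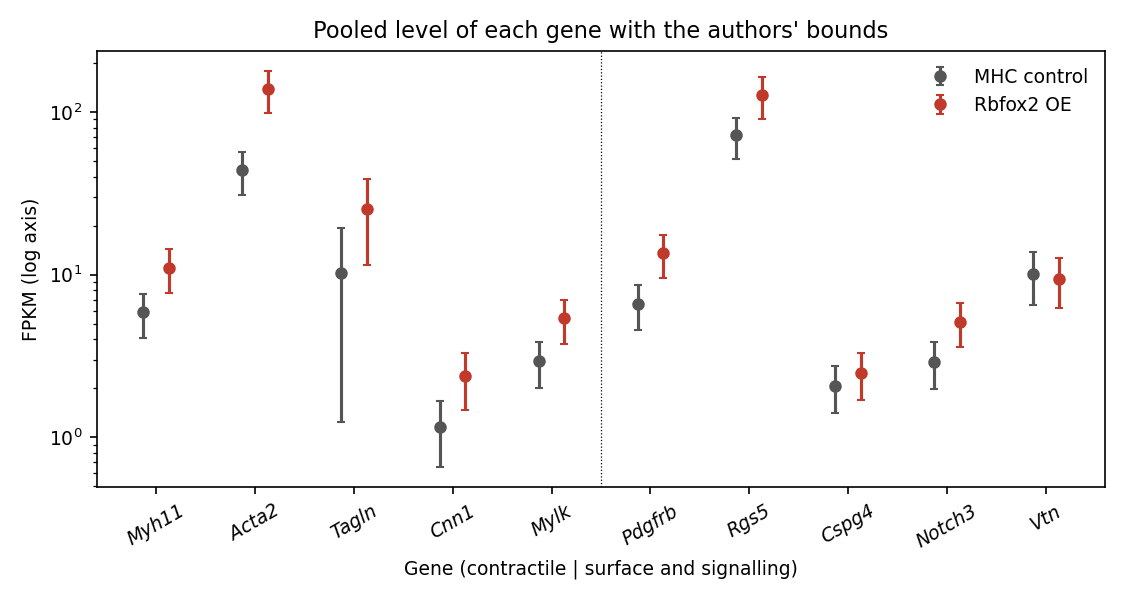
Pooled FPKM on a log axis of the 10 genes in MHC control (grey) and Rbfox2 OE (red); bars are the authors' lower and upper bounds, whose level is not stated. The bars of Acta2, Pdgfrb and Myh11 do not overlap between groups, and those of Tagln in the control are the longest on this log axis, from 1.24 to 19.3 FPKM.

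The contractile genes stood higher in all 5 cases, with a median log2 ratio of 0.81, and their summed level went from 63.9 to 184 FPKM. Acta2 (chromosome 19, 34241090 to 34255590, minus strand), which encodes smooth muscle alpha-actin, the thin filament of these cells, led the set. It stood at 43.7 FPKM (30.7 to 56.8) in MHC control cells and 140 FPKM (99.2 to 180) in Rbfox2 OE cells. The bounds lay 42.4 FPKM apart, and the plain ratio was 3.19. The log2 ratio was 1.65, between 0.79 for the nearest and 2.51 for the farthest pair of bounds.

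Smooth muscle alpha-actin has close relatives among the actins, and some of them also differed between the groups. The skeletal muscle actin gene Acta1 stood at 137 FPKM (0 to 293) in MHC control cells and 1400 FPKM (818 to 1982) in Rbfox2 OE cells, while the cardiac actin gene Actc1 stood at 6867 and 3013 FPKM. The smooth muscle gamma-actin gene Actg2 was low, at 0.344 and 1.15 FPKM with overlapping bounds. The actin genes Actb, at 144 and 247 FPKM, and Actg1, at 83.4 and 153 FPKM, also stood higher with overlapping bounds. Of the 2146 different 50-base sequences in annotated Acta2 transcripts, 7 (0.326%) occurred in transcripts of another gene, Actg1 and its processed copies among them. None of the 2146 occurred in Acta1, Actc1 or Actg2 transcripts, so sequences of that length separate Acta2 from its muscle relatives.

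Serum response factor binds the CArG box, which is CC, then 6 bases of A or T, then GG, and reads alike on both strands. The 250 bases before the RefSeq start were read for 7 of the 10 genes (GRCm38.p6), but not for Myh11, Tagln and Pdgfrb. None of the 7 contained an exact box, against 1.47% of 32851 such windows. The Mylk window, 34784700 to 34784949, lies inside the gene as GENCODE M21 places it, not before its start. Allowing 1 G or C among the inner bases gave matches in Acta2 alone, against 8.59% of all windows. The Acta2 matches are shown because that gene had the highest ratio of the set. They begin 84 and 34 bases before the RefSeq start and do not overlap, and they lie within the gene as GENCODE M21 places it. The minus strand is printed and capitals mark the match.
Acta2, chr19:34255438-34255467: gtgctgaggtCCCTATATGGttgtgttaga
Acta2, chr19:34255388-34255417: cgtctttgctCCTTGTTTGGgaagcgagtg
A match is a description of sequence, and no factor binding was measured.

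Tagln (chromosome 9, 45929619 to 45936058, minus strand), which encodes transgelin, an actin-binding protein of smooth muscle, stood at 10.3 FPKM (1.24 to 19.3) in MHC control cells and 25.2 FPKM (11.5 to 39.0) in Rbfox2 OE cells. Its log2 ratio of 1.22 was the second highest, but its bounds overlapped and gave a range from -0.70 to 4.16. The upper bound lay 88.0% above the control value, the widest of the set. The table places Tagln in a locus of 45838580 to 45936058 that 5 other rows share, and the annotated gene overlaps Pcsk7 on the opposite strand. In the control, Pcsk7, Rnf214 and Bace1 of that locus had 4.93, 13.9 and 10.2 FPKM, and their Rbfox2 OE values were 4.62, 11.6 and 7.11 FPKM. None of the 5 was higher in Rbfox2 OE. No 50-base sequence of annotated Tagln transcripts occurred in another gene, and how fragments were divided within the locus was not tested. The related gene Tagln2 stood at 37.9 FPKM in MHC control cells and 89.3 FPKM in Rbfox2 OE cells. Its log2 ratio was also 1.22, and its bounds were separate.

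Myh11 (chromosome 16, 14194535 to 14291372, minus strand), the smooth muscle myosin heavy chain and the most restricted marker of mature smooth muscle among the 10, stood at 5.85 FPKM (4.06 to 7.64) in MHC control cells and 11.0 FPKM (7.71 to 14.3) in Rbfox2 OE cells. The groups were separate by 0.0702 FPKM, a thin margin, and the log2 ratio was 0.81. Among the nonmuscle myosins, Myh9 stood at 16.3 and 36.9 FPKM with separate bounds, and Myh10 at 5.75 and 5.24 FPKM with overlapping ones. Of the 50-base sequences in Myh11 transcripts, 0.340% occurred in another gene, and Myh9 and Myh10 held all of these.

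Mylk (chromosome 16, 34745210 to 35002420, plus strand) stood at 2.92 FPKM (2.01 to 3.84) in MHC control cells and 5.38 FPKM (3.75 to 7.02) in Rbfox2 OE cells, a log2 ratio of 0.70. The bounds overlapped by a narrow strip. Among the other myosin light chain kinases, Mylk3, the cardiac kinase, was far more abundant, at 226 (128 to 324) and 219 FPKM (129 to 309). Mylk2, the skeletal muscle kinase, was below the minimum level, at 0.027 and 0.0711 FPKM, and Mylk4 stood at 29.9 FPKM (21.2 to 38.5) in MHC control cells and 5.62 FPKM (3.35 to 7.88) in Rbfox2 OE cells. Mylk overlaps 3 annotated antisense genes, of which the 1 found in the table was near 0.

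Cnn1 (chromosome 9, 22099216 to 22109630, plus strand) encodes calponin 1, which binds actin and restrains the myosin motor. It was the lowest of the set in both groups, at 1.16 FPKM (0.654 to 1.67) in MHC control cells and 2.37 FPKM (1.47 to 3.28) in Rbfox2 OE cells. The plain ratio was 2.04 and the log2 ratio 0.64, with overlapping bounds. The related gene Cnn2, at 20.6 and 41.3 FPKM, had a plain ratio of 2.01, also with overlapping bounds.

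Among the genes of the cell surface and of signalling, 4 of 5 stood higher, and the median log2 ratio was 0.65. Pdgfrb (chromosome 18, 61045150 to 61085061, plus strand) encodes the receptor through which pericytes are recruited. It stood at 6.58 FPKM (4.56 to 8.61) in MHC control cells and 13.5 FPKM (9.47 to 17.5) in Rbfox2 OE cells. The groups were separate, with a plain ratio of 2.05 and a log2 ratio of 0.93. Fibroblasts also carry this receptor, so it is not restricted to mural cells.

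Rgs5 (chromosome 1, 169655501 to 169695813, plus strand) encodes a protein that shortens signalling by G proteins and is among the most abundant pericyte transcripts. It stood at 71.9 FPKM (51.4 to 92.4) in MHC control cells and 127 FPKM (90.5 to 164) in Rbfox2 OE cells. The bounds overlapped by 1.94 FPKM at a log2 ratio of 0.82. Myh11 had nearly the same log2 ratio, and its bounds were separate by a slight margin, so the count of 3 genes with separate bounds divides genes of like ratio.

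Notch3 (chromosome 17, 32120820 to 32166852, minus strand), a receptor that keeps smooth muscle cells differentiated, stood at 2.92 FPKM (1.98 to 3.86) in MHC control cells and 5.15 FPKM (3.58 to 6.72) in Rbfox2 OE cells. Its log2 ratio was 0.65 and its bounds overlapped. The antisense gene Gm17276, which overlaps it, was below 1 FPKM in both groups.

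Cspg4 and Vtn differed least. Cspg4 (chromosome 9, 56865033 to 56899870, plus strand), the NG2 proteoglycan of the pericyte surface, stood at 2.07 FPKM (1.40 to 2.74) in MHC control cells and 2.49 FPKM (1.69 to 3.3) in Rbfox2 OE cells, a log2 ratio of 0.18 with bounds that gave -0.48 to 0.84. Vtn (chromosome 11, 78499091 to 78502324, plus strand), which encodes the secreted adhesion protein vitronectin, stood at 10.1 FPKM (6.52 to 13.7) in MHC control cells and 9.43 FPKM (6.22 to 12.6) in Rbfox2 OE cells. Its log2 ratio of -0.09 became 0.039 after rescaling, so its direction was not fixed. The range that the bounds gave for Vtn, -1.03 to 0.86, includes the log2 ratios of 6 of the other genes but not those of Acta2, Tagln and Pdgfrb.

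**Figure D2:**
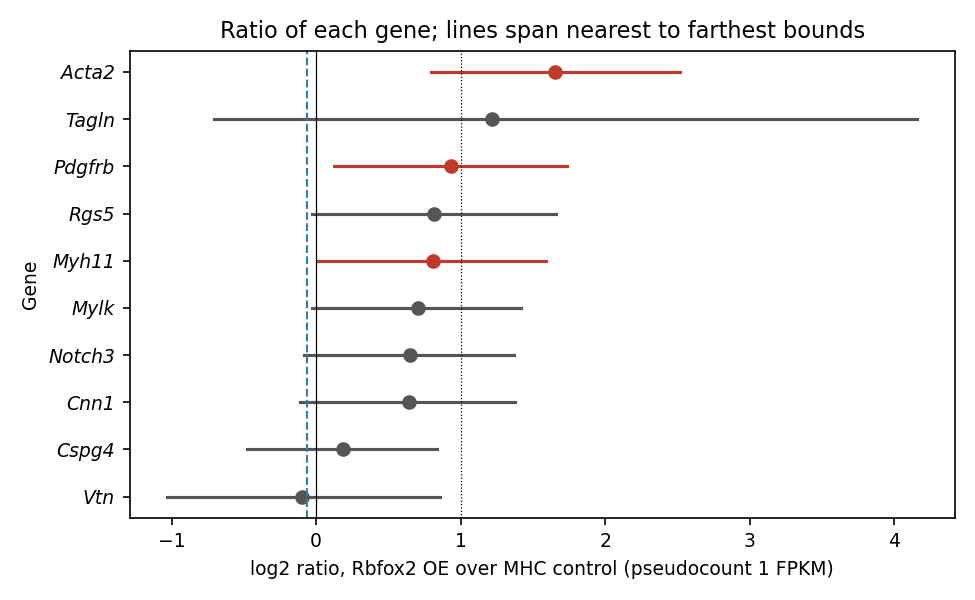
Log2 ratio (Rbfox2 OE against MHC control) for each gene, with 1 FPKM added to each value; lines run from the nearest to the farthest pair of bounds and are red where the bounds are separate. The dotted line marks 2-fold and the dashed blue line the median of all genes compared, -0.06; Acta2 and Tagln lie right of 2-fold, and Vtn and Cspg4 lie lowest.

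The order of the levels changed at the top. In the control, Rgs5 came first and Acta2 next, with Rgs5 at 1.64 times the level of Acta2, and in Rbfox2 OE Acta2 came first and that ratio was 0.912. In neither group were the bounds of this pair separate. Acta2 and Rgs5 together made up 73.4% of the summed FPKM of the 10 genes in the control and 78.2% in Rbfox2 OE. Going down the order, 2 of 9 neighbouring pairs had separate bounds in each group. In the control these were Acta2 above Tagln and Myh11 above Mylk, and in Rbfox2 OE Rgs5 above Tagln and Notch3 above Cspg4.

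Levels relative to each other were steady for some pairs and not for others. Rgs5 stood at 24.6 times Notch3 in the control and 24.7 times in Rbfox2 OE, and Myh11 stood at 0.889 and 0.815 times Pdgfrb. Acta2, by contrast, went from 7.47 to 12.7 times the level of Myh11 and from 6.64 to 10.3 times that of Pdgfrb. The ratio of Rgs5 to Vtn went from 7.10 to 13.5. These are ratios of pooled values, and no error could be given for them.

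**Figure D3:**
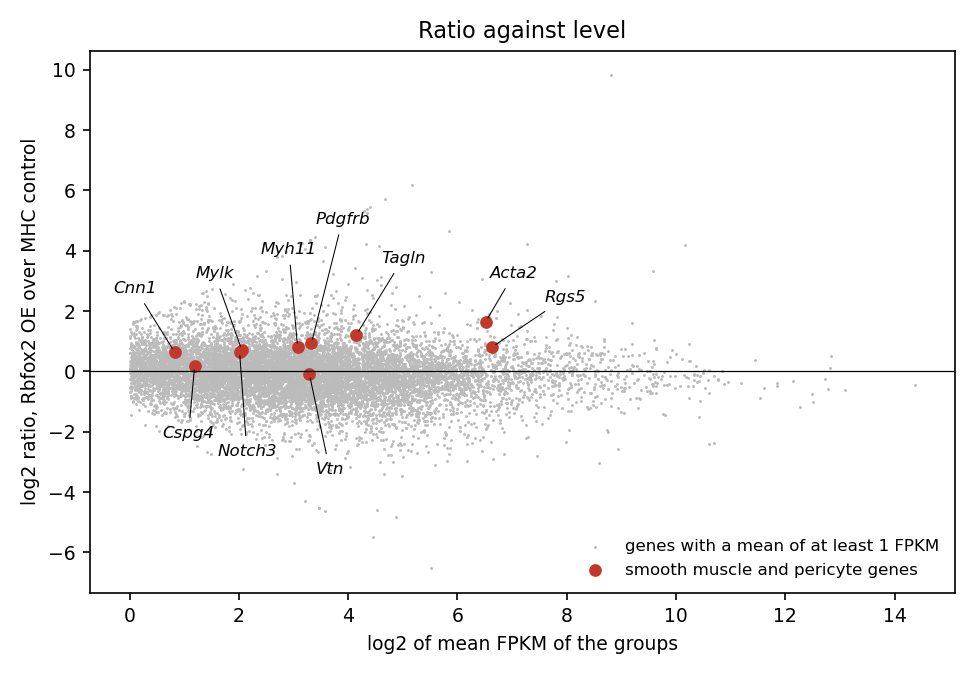
Log2 ratio (Rbfox2 OE against MHC control) against the log2 of the mean FPKM for the 11697 genes compared (grey) and the 10 smooth muscle and pericyte genes (red). The 10 genes spread over much of the range of levels, from Cnn1 to Rgs5 and Acta2, and 9 of them lie above the line at 0.

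Further genes of the smooth muscle contractile apparatus and cytoskeleton were found in both directions, 11 of 19 above a log2 ratio of 0. Of 22 listed, 19 were compared, 4 were 2-fold higher and 3 were 2-fold lower, and bounds were separate for 6 in the higher and 4 in the lower direction. The shares of all genes with separate bounds were 6.67% in the higher and 9.33% in the lower direction, and 6.97% were 2-fold higher and 1172 of 11697 genes 2-fold lower. The median log2 ratio was 0.64. The myosin light chain genes Myl9 and Myl6 stood higher, Myl9 at 29.9 and 76.1 FPKM and Myl6 at 98.1 and 206 FPKM. Tpm2, encoding a tropomyosin, stood at 21.1 FPKM in MHC control cells and 44.1 FPKM in Rbfox2 OE cells, and the calponin gene Cnn3 at 27.9 and 57.5 FPKM.

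The lower genes of that list included a regulator of myosin phosphatase and a protein of the cytoskeleton. Ppp1r12b, a targeting subunit of myosin phosphatase, stood at 58.7 FPKM (41.3 to 76.0) in MHC control cells and 14.8 FPKM (9.35 to 20.3) in Rbfox2 OE cells. Smtn, which encodes the actin-binding protein smoothelin, stood at 70.2 and 21.6 FPKM. Both genes are also expressed in cardiomyocytes, and Tpm1, at 7378 and 6174 FPKM, is a main tropomyosin of heart muscle. Rock1, at 11.9 and 6.38 FPKM, and Rock2, at 28.8 and 15.9 FPKM, were also lower with separate bounds. Which cells the RNA of the higher and the lower genes of this list came from was not tested.

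Further pericyte genes were compared in 17 of 19 cases, with a median log2 ratio of 0.50. Of these, 3 were 2-fold higher and 2 were 2-fold lower, all with separate bounds. Over all 11697 genes compared, 6.97% were 2-fold higher and 1172 genes 2-fold lower, so the lower count of the list is near that of genes in general. Steap4, encoding a metalloreductase, stood at 7.09 FPKM in MHC control cells and 22.1 FPKM in Rbfox2 OE cells. Mcam, an adhesion molecule of vessel walls, stood at 7.42 and 17.0 FPKM, and the connexin gene Gja4, also known from arterial endothelium, at 4.85 and 11.5 FPKM. Abcc9 stood at 58.5 FPKM (41.7 to 75.3) in MHC control cells and 16.2 FPKM (11.3 to 21.1) in Rbfox2 OE cells. It encodes the sulfonylurea receptor of potassium channels in pericytes, smooth muscle and cardiomyocytes, and its pericyte channel partner Kcnj8 stood at 5.28 and 6.58 FPKM. Angpt1, a ligand of the endothelial receptor Tek, stood at 8.43 and 2.33 FPKM, and the cells that its RNA came from were not tested.

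Lists of upstream regulators were compared next. Over all genes compared, 17.0% were 2-fold different and 16.0% had separate bounds, in either direction. Of 8 measured genes of the serum response factor axis none was 2-fold different or had separate bounds, and the median log2 ratio was 0.24. Srf stood at 39.7 and 32.0 FPKM and Myocd, encoding myocardin, at 24.1 and 23.6 FPKM. Both were lower in Rbfox2 OE, but 5 of the 8 genes had a log2 ratio above 0, against 46.2% of all genes compared. Cardiomyocytes and mural cells were not separated in these bulk values. Of 15 Notch pathway genes compared, none was 2-fold different or had separate bounds, with a median log2 ratio of 0.43. Hes1, a target of Notch, had the highest level, at 19.6 FPKM in MHC control cells and 11.0 FPKM in Rbfox2 OE cells. Its direction was not that of most of the list, as 12 of the 15 genes had a log2 ratio above 0. With 1 pooled value per group, these overlaps of bounds do not show that the levels were alike.

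The growth factor side was measured in 4 genes, with a median log2 ratio of 0.51. Pdgfb, the ligand of Pdgfrb, stood at 7.58 and 11.9 FPKM, and Pdgfra, the related receptor of fibroblasts, was the 1 gene that reached 2-fold, at 3.61 and 8.37 FPKM with overlapping bounds. Of 5 vitronectin receptors and ligands compared, 1 was 2-fold higher, against 6.97% of all genes compared. That gene was Plaur, the urokinase receptor, at 2.67 FPKM in MHC control cells and 12.2 FPKM in Rbfox2 OE cells with separate bounds. The median of the list was 0.16.

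Markers of several other noncardiomyocyte populations also stood higher in Rbfox2 OE. Over all genes compared, 6.97% were 2-fold higher, 6.67% had separate bounds in the higher direction and 46.2% had a log2 ratio above 0. Of 11 endothelial markers, all stood higher, 3 of them at least 2-fold and 4 with separate bounds. Their summed level was 287 FPKM in MHC control cells and 505 FPKM in Rbfox2 OE cells. Of 12 fibroblast markers, 11 were compared and 7 were 2-fold higher, with sums of 265 and 640 FPKM. Macrophage and leukocyte markers were 2-fold higher in 9 of 10 cases, with sums of 114 and 398 FPKM. Epicardial markers were 2-fold higher in 3 of 6 cases, with sums of 13.7 and 42.4 FPKM. No gene of these lists was at 0 in either group. The median log2 ratios were 0.83 for endothelium, 1.03 for fibroblasts, 1.55 for macrophages and leukocytes and 1.0 for epicardium, beside 0.76 for the 10 smooth muscle and pericyte genes.

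Activated fibroblasts are known to express Acta2 and Tagln. Col3a1 stood at 16.2 FPKM in MHC control cells and 74.2 FPKM in Rbfox2 OE cells, with separate bounds. Postn, a marker of activated fibroblasts, stood at 7.15 and 32.5 FPKM, also with separate bounds. Other genes of the fibroblast list differed less, with overlapping bounds. The log2 ratios of Lum and Tcf21 were 0.63 and 0.36, and Fap was below the minimum level, at 0.688 and 0.896 FPKM. Of 12 cardiomyocyte markers compared, 10 stood lower and 2 higher, Ttn at 166 and 252 FPKM and Nkx2-5 at 49.8 and 61.4 FPKM. The median log2 ratio was -0.63, 3 were 2-fold lower, as 1172 of the 11697 genes compared were, and 5 had separate bounds in the lower direction, against 9.33% of all genes. Glial markers summed to 1.49 and 2.21 FPKM, and none reached the minimum level. The part of these other cell types in the values of the smooth muscle and pericyte genes was not tested.

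**Figure D4:**
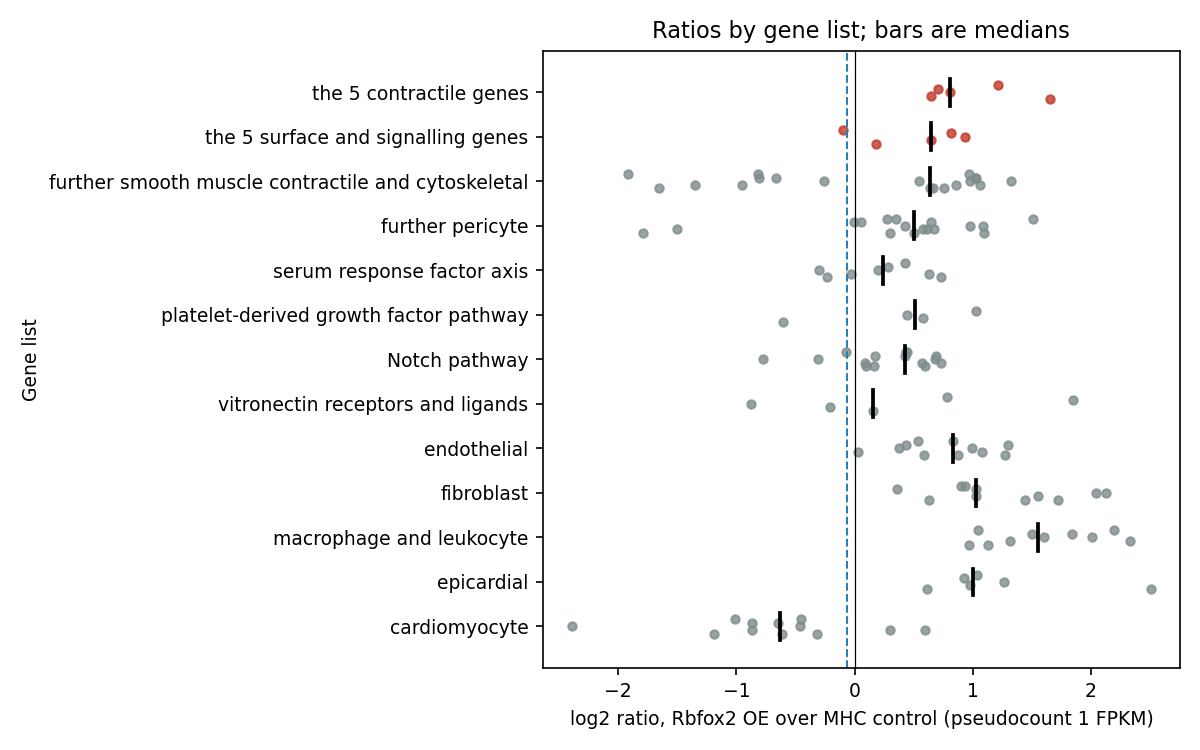
Log2 ratio (Rbfox2 OE against MHC control) for each gene compared, by list, with 1 FPKM added to each value; black bars are list medians and the dashed blue line is the median of all genes compared, -0.06. The 10 smooth muscle and pericyte genes are in red; the medians of the endothelial, fibroblast, macrophage and epicardial lists lie between 0.83 and 1.55, and that of the cardiomyocyte list at -0.63.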

How the data were processed

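The 4 libraries were grouped by title into MHC control and Rbfox2 OE, 2 each. The authors deposited 1 table of 48432 rows with, per the file headers, a pooled FPKM for each group, its 2 bounds on the same scale, and a status. Cuffdiff 2.2.1, STAR 2.4.2a and GRCm38 are named in the submitters' processing notes. The annotation, normalization mode and level of the bounds are not given in the sources used here. Depth in reads is unknown, and the number of unused columns of sample values was 0.

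Rows sharing a name were summed. Log2 ratios had 1 FPKM added to each value, so low genes appear to change less than they did. The comparison took genes averaging 1 FPKM or more, with a 2-fold threshold and, separately, bounds that do not overlap. No p-value was computed. Coordinates came from GENCODE M21 (GRCm38) and upstream sequence from RefSeq (GRCm38.p6). The calculation was tested on simulated data. Python 3.11.15 and pandas 2.3.3 were used.

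The genes and lists were chosen with earlier results of these data known. Genes that could be named were the 10, Rbfox2, and from each list up to 5 per direction with separate bounds. The most abundant gene of each cell type list also qualified. The text gives only some of the genes that qualified, so the values printed are a selection. The relatives Acta1, Actc1, Actg2, Myh9 and Myh10, and Kcnj8, Mylk2, Mylk3, Ttn, Nkx2-5, Tpm1, Hes1, Srf, Myocd, Pdgfb, Pdgfra, Pcsk7, Rnf214, Bace1 and Gm17276 were named after their values were seen, as relatives, partners or neighbours. Tagln2, Cnn2, Actb, Actg1, Lum, Tcf21 and Fap were also named after their values were seen, as relatives or as fibroblast markers without separate bounds. Alternatives covered pseudocount, filter, threshold, scaling and repeated names.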

Additional observations from a re-analysis of the deposited data

How the results depend on the processing

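No paired analysis was possible because the values of each group are pooled, and the replicate numbers therefore carry no data. Fits without each replicate were not run for the same reason, and the spread between libraries limits every value here. The 2 genes at least 2-fold higher became 1 with a pseudocount of 5 FPKM (Acta2, against 2.599% of all genes) and 1 without Tagln. They became 3, with Pdgfrb added, at a pseudocount of 0.1 FPKM (10.13% of all genes) and after rescaling (8.908% of all genes). The count was 4 with no pseudocount, 8 at a 1.5-fold threshold (16.6% of all genes) and 0 at a 4-fold threshold. The 3 genes with separate bounds became 6 after rescaling (8.63% of all genes) and 5 when scaled by the median ratio (7.44% of all genes). The settings without a pseudocount and without Tagln were chosen after seeing the data. The log2 ratio of Vtn became 0.039 after rescaling. The other 59 log2 ratios of single genes computed under alternatives kept their direction and stayed inside the range of their bounds. Each gene matched 1 row, so the setting for repeated names could not change its ratio. Centring and rescaling shifted log2 ratios by at most 0.15, far less than the ranges of the bounds. Staying inside those ranges was therefore no test of these values. The median of the 10 genes lay between 0.47 and 0.90 under its alternatives.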

Other observations

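RBFOX proteins bind the sequence UGCAUG in RNA. The longest annotated protein-coding transcript held TGCATG, read on the transcript's own strand, in 8 of the 10 smooth muscle and pericyte genes, with none in Tagln and Vtn. Of 10824 compared genes with such a transcript, 55.5% held it. The transcripts of the 10 genes were longer, with a median of 4760 bases against 3108, and the density was 0.356 per kilobase against 0.281. Cnn1 had the most matches, 4 in 2381 bases, and Acta2 had 2 in 2035 bases. Introns, where RBFOX proteins regulate splicing, were not searched, and binding was not measured.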
